A study of Mus musculus with 6 samples.

Results

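Ferritin and cellular iron handling are described here through 9 genes among the 39179 measured. They were chosen by their gene identifiers as known genes of iron storage (Fth1, Ftl1), uptake (Tfrc, Slc11a2), export (Slc40a1), release (Hmox1, Ncoa4) and control (Ireb2, Aco1), and the ferritin pseudogene Ftl1-ps2 is given beside Ftl1. Poly(A)-selected RNA was sequenced from B16-F10, a melanoma line grown in culture and derived from mouse skin, in 3 libraries labelled Sirpa-KO, with a knockout of Sirpa, and 3 labelled Sirpa-WT, with the gene intact. Sirpa encodes SIRPα, a receptor for CD47, and the comparison addresses steady-state expression in the edited and unedited tumour lines. No treatment is given for either group. The labels name neither the clones nor separate cultures, so the p-values below reflect only how far these libraries spread, which may be technical. Another label field gives the line as Pmel and the source as tumor.

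Iron enters most cells bound to transferrin through the transferrin receptor. What is not used at once is stored in ferritin, a hollow shell of heavy and light chains that the cell opens again by autophagy. Iron regulatory proteins bind short stem-loops, called iron-responsive elements, in the messenger RNAs of these genes when iron is scarce. Bound at the 5′ end of a ferritin message they block its translation, and bound at the 3′ end of the Tfrc message they protect it from decay. Much of the control of ferritin therefore acts on translation and protein, which counts of RNA do not measure.

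Matches to an iron-responsive element pattern in 4 members are printed to show where that sequence lies in their messages. Transcripts of GENCODE mouse release 21 (GRCm38) were searched on the sense strand for a C, 5 bases, the loop CAGTGN and 5 more bases, with the 5 bases on each side of the loop pairing, G with T included. Each line gives 30 bases 5′ to 3′ with the loop in capitals.
Fth1 (5′ UTR, chr19:9982732-9982761, plus strand): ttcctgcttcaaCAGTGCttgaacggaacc
Ftl1 (5′ UTR, chr7:45459778-45459807, minus strand): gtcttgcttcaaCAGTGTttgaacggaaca
Slc40a1 (5′ UTR, chr1:45925464-45925493, minus strand): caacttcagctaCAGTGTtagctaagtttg
Tfrc (3′ UTR, chr16:32631219-32631248, plus strand): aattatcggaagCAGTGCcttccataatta
Tfrc (3′ UTR, chr16:32631598-32631627, plus strand): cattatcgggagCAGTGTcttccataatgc
Tfrc (3′ UTR, chr16:32631663-32631692, plus strand): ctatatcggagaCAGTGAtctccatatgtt
Tfrc (3′ UTR, chr16:32631710-32631739, plus strand): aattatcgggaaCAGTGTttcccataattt
Both ferritin genes and Slc40a1 held 1 match at the 5′ end and Tfrc held 4 at the 3′ end, while Slc11a2, Ireb2, Aco1, Hmox1 and Ncoa4 had none with these letters. Across 22500 genes with a coding sequence, 0.138% held a match in a 5′ UTR and 0.64% in a 3′ UTR. A match describes the sequence only, and an element with other loop letters or unpaired stem bases would be missed.

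The libraries differed widely in depth, and each result is given with and without the deepest. Sirpa-KO replicate 1, called the deep library, had 29877270 counts, while the other 5, called shallow, had 338824 to 411695. At that depth a single count is worth 2.43 to 2.95 CPM (a count scaled by the total of its library). A count of 0 has an approximate 95% upper limit of 3 counts, equal to 7.29 to 8.85 CPM. These figures cover counting error only. Sirpa had 53.0, 17.7 and 16.3 CPM (1584, 6 and 6 counts) in the libraries labelled Sirpa-KO, against 29.1, 20.4 and 8.68 CPM (12, 7 and 3 counts) in those labelled Sirpa-WT. The deep library, labelled Sirpa-KO, was above every Sirpa-WT library, so Sirpa was not lower there in CPM. That library stood above the shallow ones for most coding genes (median log2 ratio 0.90). Whether this accounts for its Sirpa value was not tested. The shallow groups overlapped for Sirpa. Group names below are those of the labels, which Sirpa does not check, and every direction drawn from the deep library carries this limit. Summed CPM of 8 melanocyte genes ran between 12700 and 16000 across Sirpa-KO, against 16000 to 19200 across Sirpa-WT. Of 8 macrophage markers, 6 (Adgre1, Csf1r, Marco, Mrc1, Aif1 and Ptprc) had no count in any shallow library, and the whole list summed to at most 8.16 CPM in any library. All 7 red-cell markers found in the files had no count in the shallow libraries. The T cell, fibroblast and endothelial lists summed to at most 8.85, 13.6 and 2.72 CPM in any library. Processed pseudogenes, which are intronless gene copies, held 25.8% and 25.6% of all counts in Sirpa-KO replicates 2 and 3 but 0.16% in the deep library, against 27.7% to 28.7% in Sirpa-WT.

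None of the 9 iron genes passed the test between genotypes. The ferritin chains and Tfrc stood far above the rest per length of exon. In the shallow libraries Fth1, Hmox1, Ncoa4 and Slc40a1 were higher in each Sirpa-KO than in each Sirpa-WT library without reaching the threshold. Genes were tested with edgeR's quasi-likelihood method at an adjusted p of 0.05 over all genes. Slc40a1 lay under the count filter (28.9 CPM without the deep library), and 8 members passed it. Over 6 libraries 0 of 8 members were called, against 0 of 5397 genes (0%), where 344 genes had an unadjusted p under 0.05 and the biological coefficient of variation was 75.8%. Without the deep library 0 of 8 were called, against 322 of 5510 genes (5.84%; 1.32% higher and 4.52% lower), with a coefficient of variation of 7.25%. Of all genes called there, 73 were higher and 249 lower, a split that became 279 higher and 128 lower with scaling by library size alone. DESeq2 called 0 of the 8 over 6 libraries; without the deep library it gave an adjusted p for 3 members, Fth1, Ftl1 and Tfrc, and called none, while Slc11a2, Ireb2, Aco1, Hmox1 and Ncoa4 received no adjusted p and could not be called. Before adjustment, Fth1 and Ftl1 were under 0.05 in edgeR without the deep library, and no tested member was over 6 libraries. Sirpa-KO lay wholly above Sirpa-WT in CPM for 3 of the 8 in the shallow libraries (26.3% of all genes tested) and for 2 of 8 over 6 libraries (20.4%). It lay wholly below for 0 in either (11.8% and 10.2%). The median log2 fold change of the 8 members was 0.19 without the deep library, against 0.013 over all genes tested. Over 6 libraries these medians were 0.48 and 0.11. For protein-coding genes alone, the class of all 8 members, the median was 0.036 without the deep library and 0.39 over 6 libraries. In bulk RNA, fewer cells of a type and less RNA per cell cannot be told apart.

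**Figure D1:**
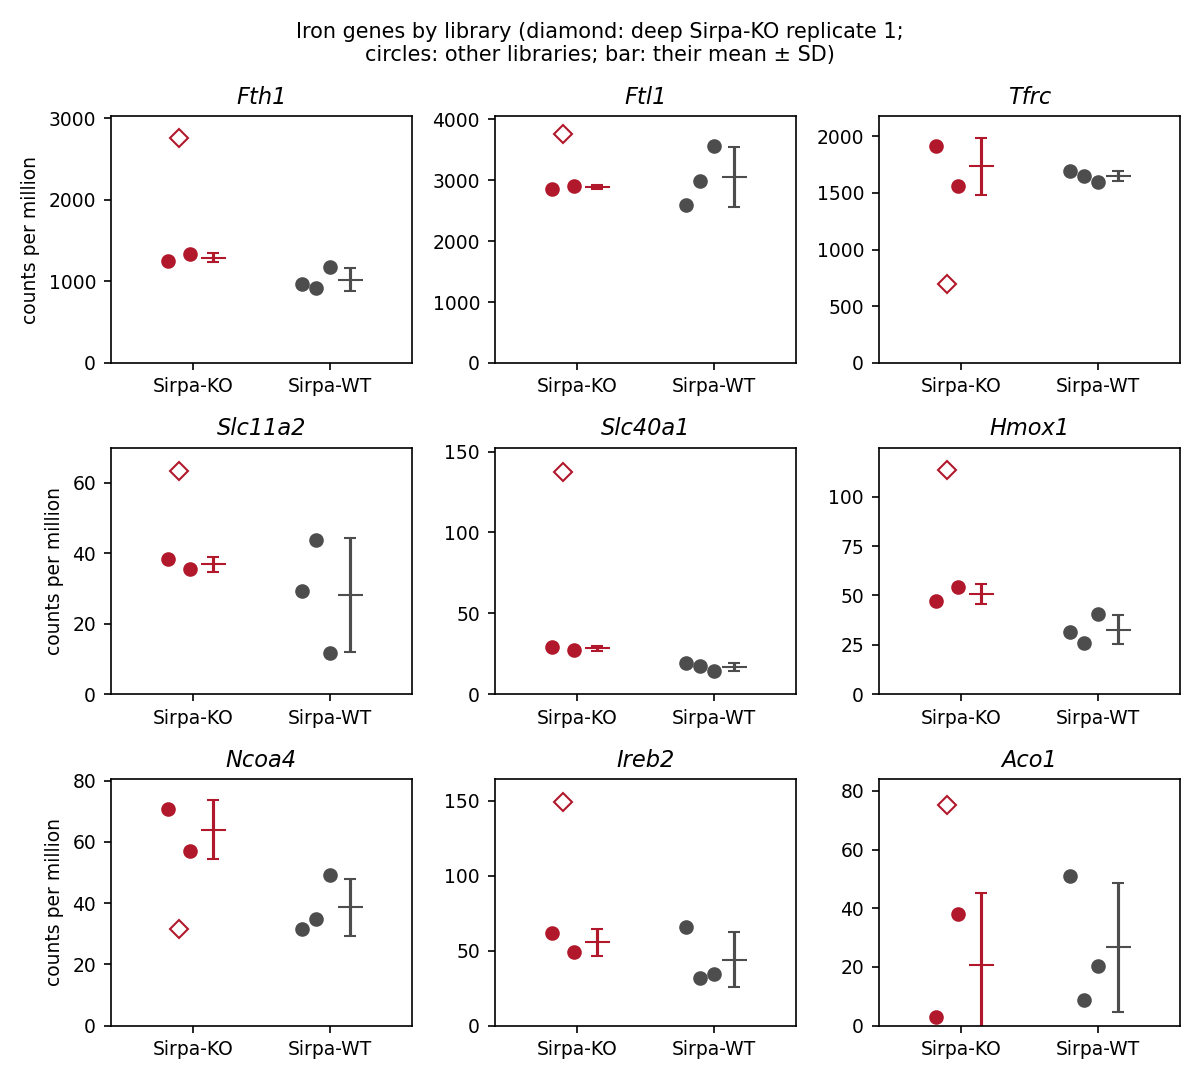
CPM (vertical axis, from 0, a scale for each gene) of the 9 iron genes in Sirpa-KO (left) and Sirpa-WT (right) libraries. Circles are the shallow libraries with their mean ± SD beside them (n = 2 and n = 3) and the diamond is the deep library, which stands above Sirpa-WT for each gene except Tfrc, where it is lowest, and Ncoa4, where it lies among the Sirpa-WT libraries. The lower SD bar of Aco1 in Sirpa-KO reaches below 0 and is not drawn there.

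Ferritin heavy chain, Fth1 (ENSMUSG00000024661, GRCm38 chromosome 19, 9982703 to 9985092, plus strand), oxidises iron for storage. It had 2757, 1248 and 1333 CPM in Sirpa-KO replicates 1 to 3, against 967, 916 and 1181 CPM in Sirpa-WT. Each Sirpa-KO library was above each Sirpa-WT library, and the deep library was 2.7 times the Sirpa-WT mean. Its log2 fold change was 0.22 ± 0.10 (SE, edgeR adjusted p = 0.196) without the deep library, with a 95% interval of 0.016 to 0.42, and 0.63 ± 0.49 (adjusted p = 0.597) over 6 libraries. Fth1 was called higher with scaling by library size alone (0.36, adjusted p = 0.0139) and without Sirpa-WT replicate 3 (0.34, adjusted p = 0.0292), and stood at 0.0049 (adjusted p = 0.99) after the deep-ratio trend, the trend of each library on the genes' ratio of deep to shallow CPM, was removed. That library-size scaling placed the median of all genes at 0.15, against 0.013 under the scaling used throughout.

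Ferritin light chain, Ftl1 (ENSMUSG00000050708, chromosome 7, 45457944 to 45459884, minus strand), helps form the iron core inside the shell. Its own row had 3762, 2863 and 2913 CPM in Sirpa-KO and 2599, 2987 and 3571 CPM in Sirpa-WT. The shallow Sirpa-KO values lay inside the Sirpa-WT range. On the log2 scale the Ftl1 difference was -0.20 ± 0.09 (SE, edgeR adjusted p = 0.161) without the deep library, with an interval of -0.37 to -0.027, and -0.10 ± 0.50 (adjusted p = 0.907) over 6 libraries. The value depended on the fit: it was -0.066 (edgeR adjusted p = 0.732) without Sirpa-WT replicate 3 and -0.061 (adjusted p = 0.723) with library size alone, while Ftl1 passed as lower without Sirpa-WT replicate 1 (-0.30, adjusted p = 0.00899) and with the replicate number as a block (-0.30, adjusted p = 0.0211).

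Processed copies of Ftl1 lie elsewhere in the genome and have count rows of their own. Ftl1-ps2 (ENSMUSG00000096755, chromosome 10, 130592154 to 130592705, minus strand) differs from the Ftl1 coding sequence at 12 of 549 aligned bases and shares 56.4% of its 25-base words with Ftl1 transcripts. Gm15590, a processed pseudogene on chromosome 17, differs at 5 of 552. A stretch of 60 coding bases (positions 445 to 504 of the Ftl1 coding sequence) is printed with capitals where a copy departs from Ftl1. It was chosen as the stretch where both copies together depart most, so they are more alike over their whole length.
Ftl1 (chr7:45458155-45458214, minus strand): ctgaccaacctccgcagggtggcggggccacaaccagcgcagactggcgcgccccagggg
Ftl1-ps2 (chr10:130592202-130592261, minus strand): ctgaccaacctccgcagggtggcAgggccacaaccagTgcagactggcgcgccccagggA
Gm15590 (chr17:6131902-6131961, minus strand): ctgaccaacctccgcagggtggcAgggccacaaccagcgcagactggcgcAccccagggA
Counted from the first coding base of Ftl1, the changes are G468A, C482T and G504A in Ftl1-ps2 and G468A, G495A and G504A in Gm15590. In all, 8 annotated rows shared at least 50 such words with Ftl1, and they were 89.3% to 99.6% identical to its coding sequence. Reads from so near a copy cannot be assigned with certainty, and the counting command carried no option for reads with several alignments.

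Ftl1-ps2 fell in the shallow Sirpa-KO libraries. It had 2588 and 2720 CPM in Sirpa-KO replicates 2 and 3 and 0.335 CPM (10 counts) in the deep library, against 3796, 3921 and 4240 CPM in Sirpa-WT. The groups did not overlap, with or without the deep library. Its log2 fold change was -0.71 ± 0.09 (SE, edgeR adjusted p = 1.05e-12) without the deep library, and -1.29 ± 2.05 (adjusted p = 0.794) over 6 libraries. With the deep-ratio trend removed it stood at -0.24 and was no longer called (adjusted p = 0.106). Its row overlaps the microRNA gene Gm26445 on the same strand. That gene had up to 56 counts in a shallow library and 0 in the deep one. How the overlap affects the Ftl1-ps2 counts was not tested.

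Without the deep library, edgeR called 3 of the 8 Ftl1 copies lower and none higher, and 5 were not called. Of the 4 named ferritin pseudogene rows it called 1, Ftl1-ps2. Gm15590, which took the most counts, had 4926 and 5181 CPM in Sirpa-KO replicates 2 and 3 and 0.569 CPM in the deep library, against 6952, 7030 and 7924 CPM in Sirpa-WT (log2 fold change -0.65 ± 0.08, SE, adjusted p = 1.72e-12). Gm5278 had 289 and 370 CPM, and 0.0335 CPM in the deep library, against 411, 425 and 469 CPM in Sirpa-WT (-0.51 ± 0.15, SE, adjusted p = 0.014). With the trend removed neither passed (-0.15 and -0.23), and Gm5278 was also not called with DESeq2 (adjusted p = 0.0678), with library size alone, or without Sirpa-KO replicate 2 or Sirpa-WT replicate 3. Of 1058 processed pseudogenes tested, 94 (8.88%) were lower and the median log2 fold change was -0.078; of 4294 protein-coding genes, 143 (3.33%) were lower and the median was 0.036. The difference between these classes was not tested. Ftl1-ps1, 99.6% identical to Ftl1 and listed as protein-coding in the annotation, had 626 and 713 CPM in the shallow Sirpa-KO libraries, 3.21 CPM in the deep library, and 563, 663 and 579 CPM in Sirpa-WT. It carries the same 5′ element as Ftl1, letter for letter, and its log2 fold change was 0.037 ± 0.12 (SE, edgeR adjusted p = 0.905). Ftl2-ps stood at -0.26 ± 0.22 (adjusted p = 0.542). Over 6 libraries edgeR called 0 of the 8 copies, with a median log2 fold change of -1.12. Gm15590 stood there at -1.24 ± 2.08 (SE, edgeR adjusted p = 0.805).

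**Figure D2:**
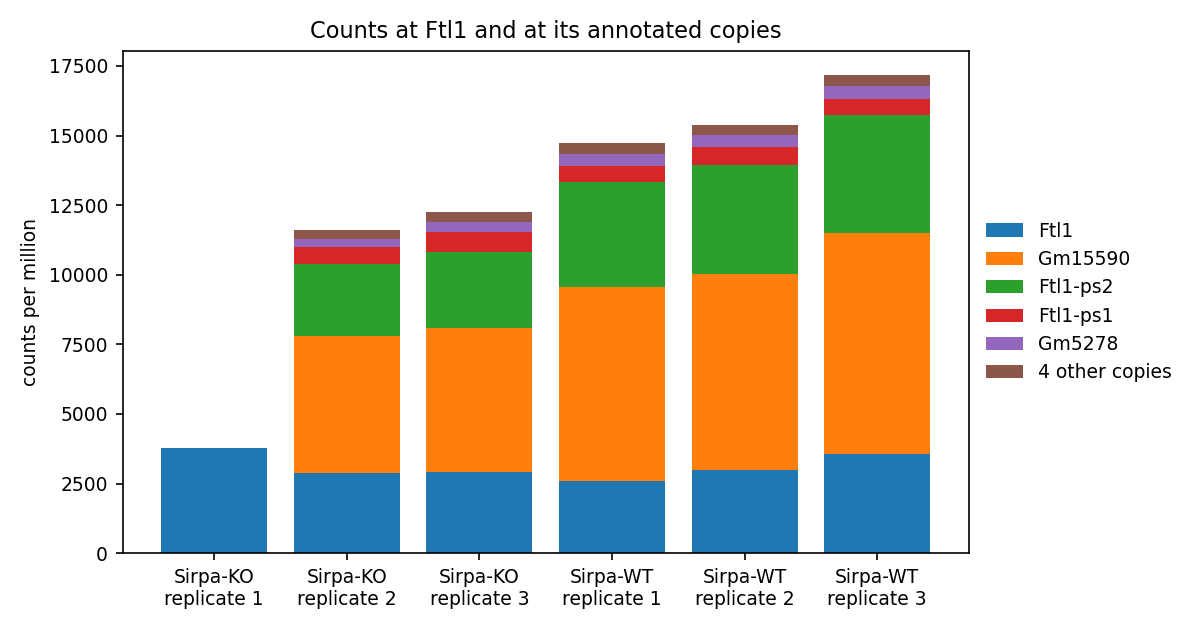
Stacked CPM (vertical axis) at Ftl1 and its 8 annotated copies in each library, Sirpa-KO on the left. Nearly the whole bar of the deep library is Ftl1 itself, while Gm15590 and Ftl1-ps2 fill most of the others, whose bars are lower in Sirpa-KO replicates 2 and 3 (11610 and 12250 CPM) than in Sirpa-WT (14730 to 17180 CPM).

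The split between Ftl1 and its copies set the deep library apart. Ftl1 itself held 99.87% of the summed counts there, 24.65% and 23.78% in Sirpa-KO replicates 2 and 3, and 17.65%, 19.43% and 20.78% in Sirpa-WT. The shallow Sirpa-KO mean was 24.2% ± 0.616 (SD, n = 2) and the Sirpa-WT mean 19.3% ± 1.57 (SD, n = 3), without overlap (exact permutation test, 2-sided, p = 0.2, the smallest that these libraries allow). Summed over Ftl1 and its copies, CPM was 3767, 11610 and 12250 in Sirpa-KO replicates 1 to 3, against 14730, 15370 and 17180 in Sirpa-WT. Entered as a single gene, this sum fell without the deep library (log2 fold change -0.52 ± 0.08, SE, edgeR adjusted p = 4e-09), and the sum over the named rows Ftl1, Ftl1-ps1, Ftl1-ps2 and Ftl2-ps alone gave -0.42 (adjusted p = 2.89e-05). Over 6 libraries the larger sum stood at -0.91 ± 0.74 (adjusted p = 0.61). The sum with every copy was chosen after the copies' counts were seen. Neither sum was fitted with the deep-ratio trend removed, where the single rows Gm15590 (-0.15) and Ftl1-ps2 (-0.24) were no longer called.

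Heavy-chain copies were fewer. Fth-ps2 (chromosome 6), 86% identical to the Fth1 coding sequence, had 109 and 125 CPM in the shallow Sirpa-KO libraries, 0.502 CPM in the deep library, and 72.9, 78.5 and 78.1 CPM in Sirpa-WT (log2 fold change 0.50 ± 0.24, SE, edgeR adjusted p = 0.216 without the deep library). It lies inside Braf on the same strand. Over 6 libraries Fth-ps2 stood at -0.13 ± 1.525 (SE, edgeR adjusted p = 0.961). Gm6977, on chromosome X, shared 128 words with Fth1 and had 118 and 155 CPM in the shallow Sirpa-KO libraries, 0.268 CPM in the deep library, and 139, 131 and 145 CPM in Sirpa-WT. Summed with Gm6977 and Fth-ps2, Fth1 had a log2 fold change of 0.20 without the deep library, close to its own 0.22. That sum was not called (edgeR adjusted p = 0.217). Counts of Fth1 with Gm6977 were 0.118 and 0.121 of those of Ftl1 with its copies in the shallow Sirpa-KO libraries, 0.732 in the deep library, and 0.075, 0.0681 and 0.0771 in Sirpa-WT. The groups did not overlap in this ratio (exact permutation test over the 5 shallow libraries, 2-sided, p = 0.2, the smallest possible). Its denominator is the sum chosen after the copies' counts were seen. The ratio was not computed with the deep-ratio trend removed.

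For uptake, Tfrc (ENSMUSG00000022797, chromosome 16, 32608920 to 32632794) encodes the transferrin receptor. It had 697, 1915 and 1558 CPM in Sirpa-KO and 1693, 1652 and 1600 CPM in Sirpa-WT. The shallow Sirpa-KO libraries lay on either side of Sirpa-WT, and the deep library lay below them all, at 0.423 of the Sirpa-WT mean. On the log2 scale the Tfrc difference was -0.046 ± 0.10 (SE, edgeR adjusted p = 0.838) without the deep library, with an interval of -0.23 to 0.14, and -0.38 ± 0.55 (adjusted p = 0.77) over 6 libraries. Tfrc held 4 matches to the iron-responsive element pattern in its 3′ UTR and shares 0.0162% of its words with pseudogenes.

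Slc11a2 (ENSMUSG00000023030, chromosome 15), the divalent metal transporter that moves iron out of endosomes, had 63.3, 38.4 and 35.4 CPM in Sirpa-KO and 29.1, 43.6 and 11.6 CPM in Sirpa-WT. The shallow groups overlapped, and 15 counts were the most in any shallow library. Its log2 fold change was 0.26 ± 0.40 (SE, edgeR adjusted p = 0.773) without the deep library and 0.55 ± 0.55 (adjusted p = 0.67) with it. Slc40a1 (ENSMUSG00000025993, chromosome 1), ferroportin, is the known cellular iron exporter. It had 4110, 10 and 10 counts in Sirpa-KO and 8, 6 and 5 in Sirpa-WT, or 138, 29.5 and 27.2 CPM against 19.4, 17.5 and 14.5 CPM. Each Sirpa-KO library was above each Sirpa-WT library, and the deep library was 8.04 times the Sirpa-WT mean. Fitted without the count filter, the log2 fold change was 0.55 ± 0.48 (SE, edgeR adjusted p = 0.798) without the deep library and 1.45 ± 0.60 (adjusted p = 0.802) over 6.

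Of the genes that free iron, Hmox1 (ENSMUSG00000005413, chromosome 8), the inducible haem oxygenase that breaks down haem, had 113, 47.2 and 54.4 CPM in Sirpa-KO and 31.6, 26.2 and 40.5 CPM in Sirpa-WT. Each Sirpa-KO value exceeded each Sirpa-WT value, from 16 and 20 counts in the shallow Sirpa-KO libraries against 13, 9 and 14 in Sirpa-WT. For Hmox1 the log2 fold change was 0.51 ± 0.35 (SE, edgeR adjusted p = 0.42) without the deep library, with an interval of -0.17 to 1.20, and 0.98 ± 0.46 (adjusted p = 0.574) over 6 libraries. Ncoa4 (ENSMUSG00000056234, chromosome 14), the receptor that carries ferritin to the autophagosome, had 31.7, 70.8 and 57.1 CPM in Sirpa-KO and 31.6, 34.9 and 49.2 CPM in Sirpa-WT. The shallow Sirpa-KO libraries stood above all Sirpa-WT libraries and the deep library lay among the Sirpa-WT values. The log2 fold change was 0.61 ± 0.32 (SE, edgeR adjusted p = 0.254) without the deep library and 0.30 ± 0.46 (adjusted p = 0.783) with it. Ncoa4 shares 19.1% of its words with pseudogenes, mainly Gm6768, which had 5 and 6 counts in the shallow Sirpa-KO libraries, 20 in the deep library, and 3, 5 and 3 in Sirpa-WT.

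The control proteins are Ireb2 (IRP2), which is destroyed when iron is plentiful, and Aco1 (IRP1), which becomes a cytosolic aconitase. Ireb2 (ENSMUSG00000032293, chromosome 9) had 149, 62.0 and 49.0 CPM in Sirpa-KO and 65.6, 32.0 and 34.7 CPM in Sirpa-WT. Sirpa-WT replicate 1 lay above both shallow Sirpa-KO libraries. The log2 fold change was 0.16 ± 0.32 (SE, edgeR adjusted p = 0.826) without the deep library and 0.81 ± 0.55 (adjusted p = 0.575) with it. Aco1 (ENSMUSG00000028405, chromosome 4) had 2250, 1 and 14 counts in Sirpa-KO and 21, 3 and 7 in Sirpa-WT. It spread more within each shallow group than between them, with 3.0 and 38.1 CPM in Sirpa-KO against 51.0, 8.7 and 20.3 CPM in Sirpa-WT, and 75.3 CPM in the deep library. The log2 fold change was -0.52 ± 0.50 (SE, edgeR adjusted p = 0.601) without the deep library, 0.29 (adjusted p = 0.835) without Sirpa-KO replicate 2 as well, and 0.40 ± 1.08 (adjusted p = 0.854) over 6 libraries.

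**Figure D3:**
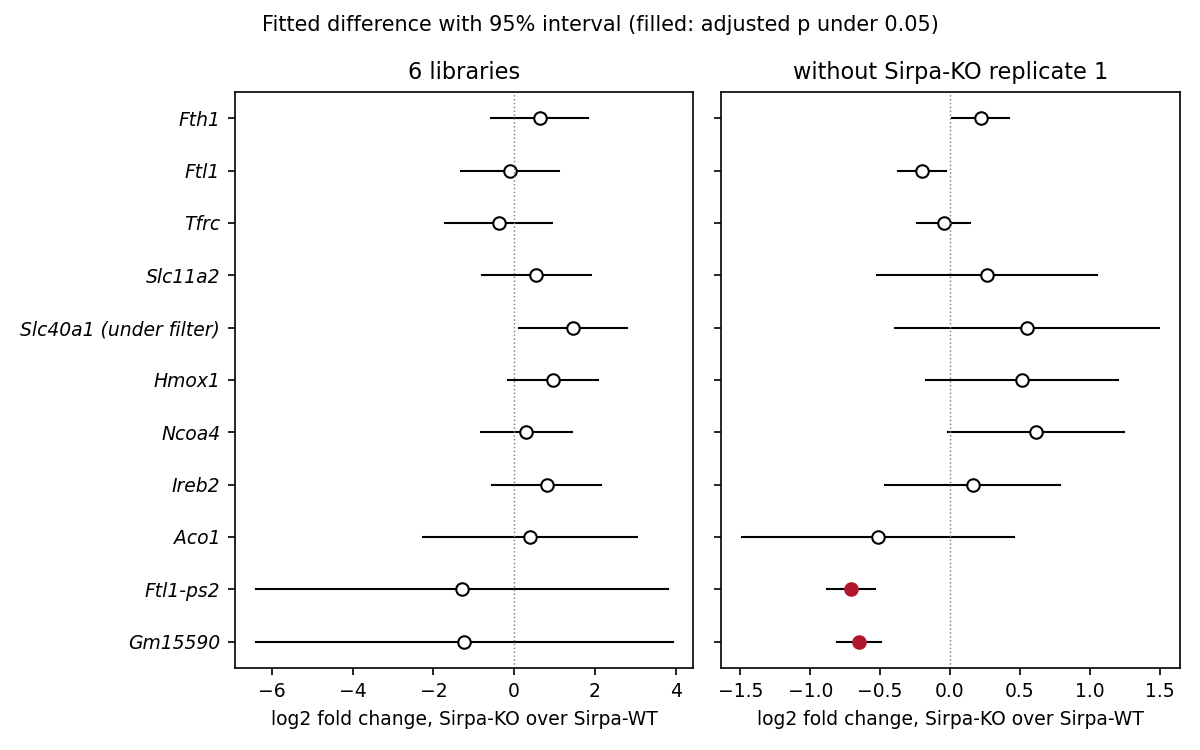
Log2 fold change of Sirpa-KO over Sirpa-WT (horizontal axis) with a 95% interval derived from the edgeR F statistic, for the iron genes and the Ftl1 copies Ftl1-ps2 and Gm15590, over 6 libraries (left panel) and without the deep library (right panel, narrower scale). Filled points, Ftl1-ps2 (-0.71) and Gm15590 (-0.65), passed an adjusted p of 0.05; all 9 iron genes are open.

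The deep library stood above the shallow ones for most coding genes, so the members' levels there need that scale. The median log2 ratio of its CPM to the shallow mean was 0.90 over 4294 protein-coding genes (pseudocount of 1 CPM). Fth1 (1.29), Hmox1 (1.48), Ireb2 (1.59) and Aco1 (1.60) lay above that median and Slc11a2 (0.98) close to it. Ftl1 (0.33), Ncoa4 (-0.60) and Tfrc (-1.27) lay below. Ftl1-ps2 was at -11.3. Slc40a1, under the count filter, had 6.36 times the shallow mean CPM in the deep library, with no pseudocount, the highest such ratio of the 9.

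Per length, the members kept a similar order in both genotypes. RPKM, the CPM per kilobase of exon, averaged 2155 ± 26.4 for Ftl1, 1490 ± 68.8 for Fth1 and 281 ± 40.8 for Tfrc in Sirpa-KO replicates 2 and 3 (SD, n = 2). In Sirpa-WT the levels were 2278 ± 365 for Ftl1, 1179 ± 162 for Fth1 and 266 ± 7.5 for Tfrc (SD, n = 3). These 3 were separated from each other and from the rest in each group. Hmox1 came next, at 23.5 ± 2.35 in shallow Sirpa-KO and 15.2 ± 3.35 in Sirpa-WT, followed by Ncoa4, at 14.4 ± 2.18 in shallow Sirpa-KO and 8.66 ± 2.10 in Sirpa-WT. The lowest 4, Ireb2, Slc40a1, Slc11a2 and Aco1, averaged 4.56 to 9.55 RPKM in shallow Sirpa-KO and 4.42 to 7.59 in Sirpa-WT. In Sirpa-WT the neighbours from Ncoa4 down overlapped in range. In shallow Sirpa-KO, Ireb2 overlapped Slc40a1 and Slc11a2 overlapped Aco1. The deep library alone had Fth1 (3184 RPKM) above Ftl1 (2808 RPKM), and Ncoa4 lowest, at 7.12. The RPKM ratio of Fth1 to Ftl1, copies left aside, was 1.13 in the deep library, 0.675 and 0.708 in the other Sirpa-KO libraries, and 0.576, 0.475 and 0.512 in Sirpa-WT.

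**Figure D4:**
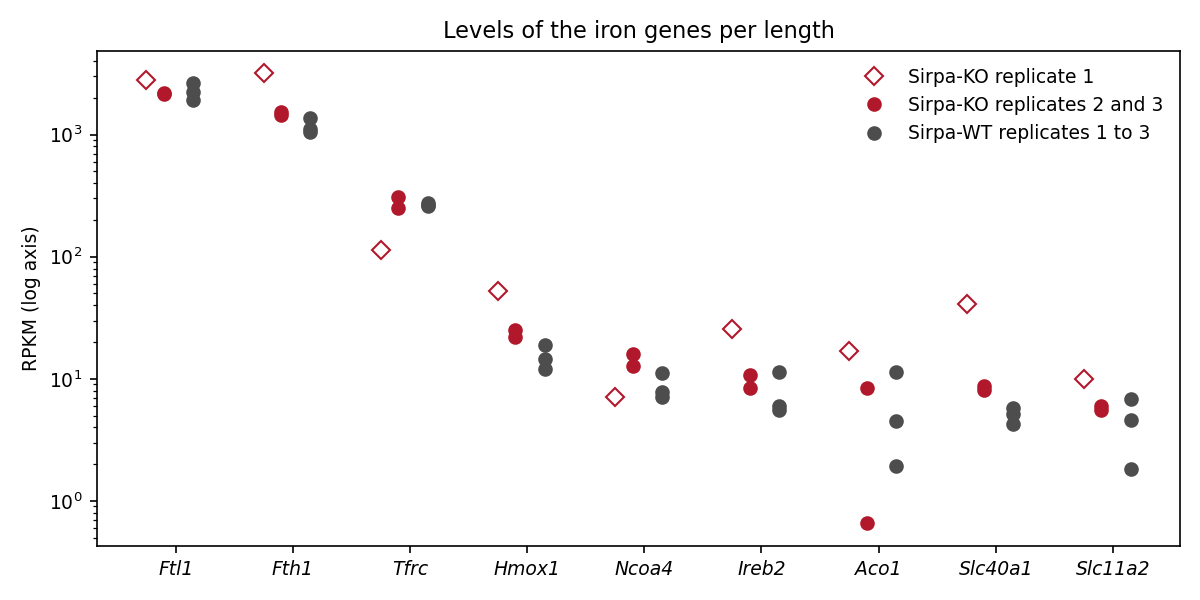
RPKM on a log axis for each iron gene, with Sirpa-KO (diamond for the deep library, red circles for replicates 2 and 3) left of Sirpa-WT (grey circles). Ftl1, Fth1 and Tfrc stand above 100 RPKM in each library and the other 6 genes below 60.

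Among the lists of surrounding pathway genes, Mcoln1, Map1lc3b and Hspa9 passed the test without the deep library. Calls in each list stand against 5.84% of all genes tested (1.32% higher and 4.52% lower), and with 3 to 10 genes tested in a list, 1 call is not read as a result about it. Among 18 listed genes of other iron import, export and reduction, 3 were tested, 1 fell and 0 rose (4.52% of all genes tested fell). Mcoln1, the lysosomal channel that lets iron and calcium out of lysosomes, had 26.6 and 27.2 CPM in the shallow Sirpa-KO libraries, 14.8 CPM in the deep library, and 65.6, 52.4 and 49.2 CPM in Sirpa-WT (log2 fold change -1.17 ± 0.37, SE, edgeR adjusted p = 0.028). Each Sirpa-KO library was below each Sirpa-WT library, from 9 and 10 counts in shallow Sirpa-KO against 27, 18 and 17 in Sirpa-WT. Only edgeR could call Mcoln1, since DESeq2 gave it no adjusted p without the deep library. The call ended with library size alone, no count filter, the replicate block, the trend removed, or without Sirpa-KO replicate 2, Sirpa-KO replicate 3 or Sirpa-WT replicate 1 (adjusted p of 0.0594 to 0.243 over these). Hfe, which binds the transferrin receptor, did not pass (-1.34 ± 0.45, SE, edgeR adjusted p = 0.0522), with 14.8 and 19.0 CPM in the shallow Sirpa-KO libraries, 19.0 CPM in the deep library, and 41.3, 49.5 and 28.9 CPM in Sirpa-WT.

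Of 14 genes of iron chaperones and ferritin turnover, 9 were tested, 1 fell and 0 rose (4.52% of all genes tested fell), and their median log2 fold change was 0.081. Map1lc3b, the LC3B protein of autophagosome membranes, had 307 and 430 CPM in the shallow Sirpa-KO libraries, 92.9 CPM in the deep library, and 479, 512 and 449 CPM in Sirpa-WT (-0.50 ± 0.14, SE, edgeR adjusted p = 0.0135). It was not called with DESeq2 (adjusted p = 0.0755), library size alone, the trend removed, or without Sirpa-KO replicate 2 or Sirpa-WT replicate 2. Fbxl5, the iron-sensing ligase subunit that marks Ireb2 protein for destruction, did not pass (-0.51 ± 0.20, SE, edgeR adjusted p = 0.0982). The iron chaperones Pcbp1 (0.15) and Pcbp2 (0.081) did not pass either.

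Of 27 genes of iron-sulfur cluster assembly, 10 were tested, 1 rose and 0 fell (1.32% of all genes tested rose), with a median of 0.038. Hspa9, the mitochondrial chaperone that takes part in cluster transfer and in protein import, had 564 and 585 CPM in the shallow Sirpa-KO libraries and 800.1 CPM in the deep library, against 374, 378 and 446 CPM in Sirpa-WT (0.41 ± 0.13, SE, edgeR adjusted p = 0.0435). Each Sirpa-KO library exceeded each Sirpa-WT library. It was not called with DESeq2, either other count filter, the replicate block (adjusted p = 0.0872), protein-coding genes only, the trend removed, or without any of Sirpa-KO replicates 2 and 3 and Sirpa-WT replicates 1 and 2. Isca1, a cluster carrier, stood at -0.51 ± 0.18 (SE, edgeR adjusted p = 0.0624).

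In haem synthesis, export and breakdown 9 of 17 genes were tested and 0 were called, with a median of -0.13. The most abundant, the haem transporter Slc48a1, had 145 and 150 CPM in the shallow Sirpa-KO libraries and 226.0 CPM in the deep library, against 168, 145 and 153 CPM in Sirpa-WT (-0.20 ± 0.20, SE, edgeR adjusted p = 0.617). Of 14 genes of the NRF2 and BACH1 axis, transcription factors known to control Hmox1 and the ferritin genes, 9 were tested and 0 were called, with a median of 0.080. Prdx1, a peroxide-removing enzyme and the most abundant of them, had 2101 and 1885 CPM in the shallow Sirpa-KO libraries and 2052 CPM in the deep library, against 1569, 1675 and 1965 CPM in Sirpa-WT (0.080 ± 0.094, SE, adjusted p = 0.683). Over 6 libraries no gene of these lists was called.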

How the data were processed

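The 6 deposited files hold raw counts of fragments per gene, which the authors made, per the file headers, using featureCounts 1.5.1 on exons annotated by Ensembl (release 75, GRCm38), with no strand or multi-mapping option; the submitters' processing notes also name STAR 2.6.0 and Subread. Symbols and biotypes came from GENCODE mouse release 21 by identifier (37607 of 39179 genes). Counts were filtered with filterByExpr (minimum count 10), scaled by TMM and tested with edgeR 4.0.16 (glmQLFit, robust) in 2-sided tests whose p-values were adjusted by Benjamini-Hochberg across all genes tested (R 4.3.3, DESeq2 1.42.0 as an alternative). The fit without Sirpa-KO replicate 1 was run beside that over all libraries because that library differs in depth and content. The deep-ratio alternative fitted per library a lowess curve (span 0.3) on the ratio of the deep library to the shallow mean. Copies share at least 50 words of 25 bases with a member, and the fitted Fth1 sum also took in Fth-ps2, which shares fewer. Named genes were the members, ferritin pseudogene rows, called genes of each list and otherwise its most abundant member; Hfe, Fbxl5, Pcbp1, Pcbp2, Isca1 and the copies called Gm were chosen after their values were seen. The members and lists were chosen with earlier results of these data known. Total counts per library, 338824 to 29877270, set the precision. The groups came from the sample titles.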

Additional observations from a re-analysis of the deposited data

How the results depend on the processing

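The calls among iron genes without Sirpa-KO replicate 1, 0 as reported, became 1 with library size alone (Fth1, higher), 1 with the replicate block, 1 with ferritin genes summed with their named pseudogene rows and 1 with every copy summed (Ftl1, lower in these 3), and ran from 0 to 1 with each library left out. Over 6 libraries they stayed 0 under each alternative run. The 0 calls among all genes over 6 libraries became 1 with DESeq2, and ranged over 0 to 322 as single libraries were dropped, with 322 for the deep one. The 322 calls without the deep library became 127 with DESeq2, 198 in protein-coding genes, where fewer genes were tested, and 104 with the deep-ratio trend removed. Leaving out each library in turn gave 125 to 351 (125 lacking Sirpa-KO replicate 2, 127 lacking Sirpa-KO replicate 3 and 214 lacking Sirpa-WT replicate 2). Library size alone gave 279 higher and 128 lower, against 73 and 249 under TMM. Over 6 libraries it moved the median of all genes from 0.11 to 0.36. The cause of these differences was not tested.

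Some log2 fold changes that were not called changed sign. Over 6 libraries, Ftl1 was 0.15 and Fth-ps2 0.015 with library size alone. With single libraries left out of the 6, Aco1 ran from -0.52 to 1.17, Ncoa4 from -0.056 to 0.61, Ftl1-ps1 from -1.07 to 0.037 and Fth-ps2 from -0.68 to 0.50. Without the deep library, Tfrc was 0.091 with library size alone and 0.22 with the deep-ratio trend removed, where Ireb2 was -0.066. With single libraries left out of those 5, Tfrc ran from -0.22 to 0.083, Slc11a2 from -0.074 to 0.67, Ireb2 from -0.030 to 0.60, Aco1 from -3.21 to 0.29, Ftl1-ps1 from -0.074 to 0.10 and Prdx1 from -0.023 to 0.18.

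Under the replicate block Aco1 was 0.34 and Ftl1-ps1 -0.010 without the deep library. Whether the numbers in the titles pair the libraries could not be decided. Over 6 libraries the correlations of same-numbered deviations were 0.0185, -0.0407 and 0.0602. There the shallow Sirpa-KO libraries gave nearly the same correlations as each other with each Sirpa-WT library. Without the deep library their correlations were equal and opposite, so neither set of values can tell pairing from its absence. The block gave 0 calls over 6 libraries and 316 without the deep one. At this depth the shallow libraries inform only on genes near 28.9 CPM or more, and Slc40a1, Hmox1, Slc11a2 and Aco1 rest on at most 21 counts in each.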
